A study of Homo sapiens with 4 samples.

Results

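Germinal-centre B cells and the lymphomas that resemble them share a set of marker genes, and 7 of these genes are described here on 4 two-colour microarrays of OCI-Ly3 cells. SERPINA9, ASB13, MAML3, LMO2, MME, BCL6 and MYBL1 were taken as a list of markers and matched by symbol to the platform annotation. They had 33 of the 15246 probes and were 7 of the 4604 named genes on the array. OCI-Ly3, a human line, comes from a diffuse large B-cell lymphoma of the other main subtype, the activated B-cell type, in which these markers are typically low. The arrays report ratios between cell populations and no levels, so neither the labelled cell type nor the level of a marker could be checked.

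On each array one channel held cells that carried a hairpin against IKKa, the kinase encoded by CHUK, induced with 20 ng/ml doxycycline, and the other channel held cells without doxycycline, labelled untreated on the arrays without inhibitor. With inhibitor, both channels also had 12.5 uM of MLN120b, which blocks the related kinase IKKb. One of these arrays had 3 days of doxycycline with 24 h of inhibitor and the other 2 days with 3 h of inhibitor. The arrays without inhibitor had 3 days and 2 days of doxycycline. Each group therefore held 2 arrays that differed in time, and nothing in the labels says that the cultures were separate. Every array had the same dye orientation, so in a mean against 0 a probe's dye bias cannot be told apart from the effect of doxycycline. The p-values of the group means and of their difference rest on the spread within each group, between 2 arrays that differed in time. That spread mixes time with variation that may be only technical, and so few arrays limit the precision. The limma fit pooled that spread over both groups and moderated it with the spread of all genes. An SD printed beside a mean is of its own group alone.

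Values are log2 ratios, likely induced over uninduced. The deposited table does not state the direction. Cy5 labelled the induced cells on every array. CHUK, the target of the hairpin, read -1.01 at 24 h and -1.30 at 3 h with inhibitor, against -0.87 at 3 days and -0.59 at 2 days without, with a mean of -0.94 (limma adjusted p = 0.00477). If the ratio ran the other way, every sign given here would turn. All pairs of arrays correlated positively over all probes, with Pearson's r between 0.36 and 0.72. In bulk RNA a change in RNA per cell and a change in the share of cells that express a gene cannot be told apart.

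BCL6 is the transcriptional repressor on which germinal-centre B cells depend, and it holds back genes of activation and plasma-cell differentiation. Several of the other markers are regulators of the same stage: MYBL1 encodes A-MYB, a transcription factor of dividing germinal-centre cells, LMO2 is a LIM-only protein that bridges DNA-binding partners, and MAML3 is a Mastermind co-activator of Notch. MME encodes CD10, a cell-surface peptidase used to recognise germinal-centre lymphoma. SERPINA9, or centerin, is a serine protease inhibitor of germinal-centre B cells, and ASB13 is a substrate receptor of ubiquitin ligases. NF-kB signalling, which the IKK kinases switch on, sustains the activated B-cell programme that opposes this one.

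RefSeq promoter entries (GRCh38.p14, 250 bases before to 50 after a start site) were at hand for 5 of the 7 genes, 9 entries in all, and not for LMO2 and MYBL1. The 3 printed here hold a match to a motif known for factors of this cell stage or of the pathway under study. In the BCL6 entry, chr3:187745419-187745718 on the minus strand, capitals mark the 4 matches to TTCNNNGAA, the element shared by STAT factors and BCL6. The last of them, read on the opposite strand, is TTCCTAGAA, a form bound by BCL6 itself.

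BCL6: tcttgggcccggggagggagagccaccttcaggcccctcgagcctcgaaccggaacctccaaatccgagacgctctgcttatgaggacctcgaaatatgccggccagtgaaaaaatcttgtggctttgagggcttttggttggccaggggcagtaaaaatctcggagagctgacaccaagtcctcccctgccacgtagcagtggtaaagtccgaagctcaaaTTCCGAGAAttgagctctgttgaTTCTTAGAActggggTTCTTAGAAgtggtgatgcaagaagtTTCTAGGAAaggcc

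SERPINA9: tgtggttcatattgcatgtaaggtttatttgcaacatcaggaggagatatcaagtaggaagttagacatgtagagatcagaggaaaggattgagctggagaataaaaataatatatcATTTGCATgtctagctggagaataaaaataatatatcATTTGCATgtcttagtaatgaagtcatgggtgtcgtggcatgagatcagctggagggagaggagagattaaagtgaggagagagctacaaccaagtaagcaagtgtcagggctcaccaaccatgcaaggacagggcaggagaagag

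MME: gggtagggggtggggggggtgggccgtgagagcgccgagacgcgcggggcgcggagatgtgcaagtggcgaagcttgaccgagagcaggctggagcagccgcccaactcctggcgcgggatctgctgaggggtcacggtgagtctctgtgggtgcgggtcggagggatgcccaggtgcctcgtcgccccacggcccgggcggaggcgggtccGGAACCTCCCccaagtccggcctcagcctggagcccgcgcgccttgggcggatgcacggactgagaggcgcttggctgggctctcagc

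In the SERPINA9 entry, chr14:94476148-94476447 on the minus strand, capitals mark 2 matches to ATGCAAAT, the octamer of B-cell POU factors, both read on the opposite strand. In the MME entry, chr3:155079620-155079919 on the plus strand, capitals mark 1 match to the kappaB consensus. Both strands of 35116 promoter entries of the same length were searched. TTCNNNGAA was found in 7.66% of them and 4 or more times in 7 entries, 0.0199%. TTCCTAGAA, each match of which is also a TTCNNNGAA match, was found in 0.373%, ATGCAAAT in 1.77% (2 or more times in 0.0399%) and the kappaB consensus in 11.3%. A match is a description of letters, and no binding was measured.

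Many of the markers' values were empty. Of the 33 probes, 15 had a value on all 4 arrays and 18 did not, which is 54.5%, against 35.8% of all probes. No value was given on any array for 2 probes, 1 of BCL6 and 1 of MYBL1. SERPINA9 (2 probes) and ASB13 (1 probe) were complete. MAML3 had 1 complete probe of 3, LMO2 2 of 4, BCL6 3 of 6, MME 4 of 7 and MYBL1 2 of 10. All 7 genes had at least 1 complete probe, and the gene values below are means over the complete probes. No source used here states why cells are empty.

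**Figure D1:**
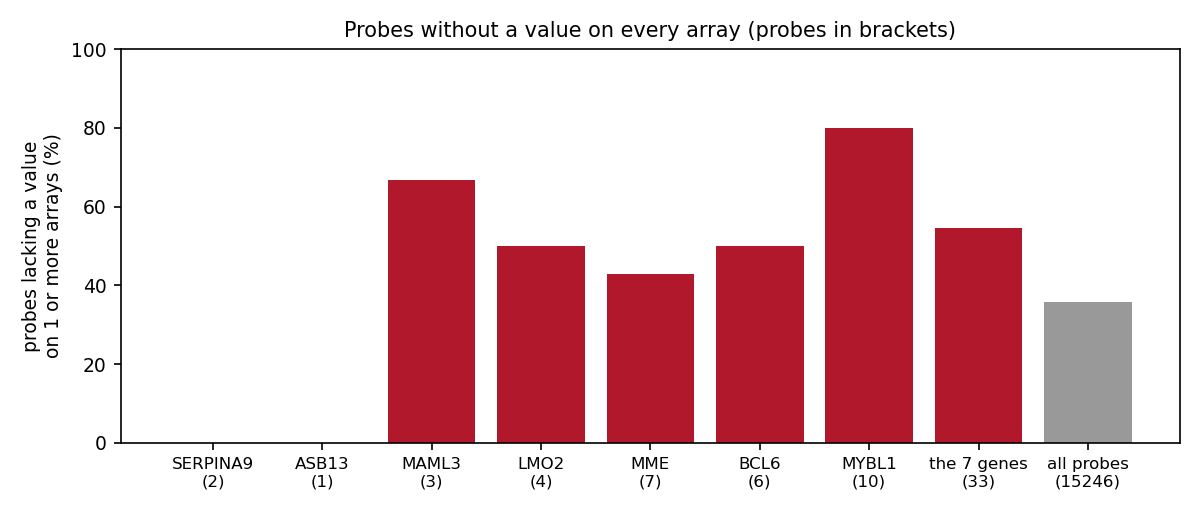
Bars give the share of probes, in percent, that were empty on at least 1 array, for each of the 7 genes, for the 7 together and for all probes, with the number of probes in brackets. SERPINA9 and ASB13 have no bar because their probes were complete, while MYBL1 reaches 80% and all probes 35.8%.

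The secreted inhibitor SERPINA9 was the 1 marker whose gene value lay above 0 on each of the 4 arrays. It had log2 ratios of 0.70 at 24 h and 0.16 at 3 h with inhibitor, against 0.37 at 3 days and 0.25 at 2 days without inhibitor. The 24 h array was the highest and the 3 h array lay below both arrays without inhibitor. Its probes read 0.88 and 0.52 on the 24 h array and 0.29 and 0.035 on the 3 h array. Without inhibitor they read 0.31 and 0.44 at 3 days and 0.18 and 0.31 at 2 days, so each probe was above 0 on every array. The mean was 0.43 ± 0.38 (SD, n = 2) with inhibitor, 1.35-fold, and 0.31 ± 0.09 without it, 1.24-fold. The limma adjusted p was 0.121 with and 0.49 without inhibitor, so neither mean passed 0.05. With the doxycycline day as a block the mean with inhibitor passed, at an adjusted p of 0.0362, where 908 of 3589 genes were called. Over all 4 arrays the mean was 0.37 (SE 0.11, adjusted p = 0.0646), at the 96.1st percentile of genes. With that block the p became 0.0191, where 1121 genes were called, and after scaling to equal spread 0.0282, where 638 were. Without the 3 h array the value with inhibitor was 0.70 and the equal-weight mean of the groups 0.50. Without the 24 h array they were 0.16 and 0.24.

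ASB13, of the ubiquitin pathway, had the highest value of the 7 with inhibitor. It rested on 1 probe, which read 0.71 at 24 h and 0.49 at 3 h with inhibitor, against 0.33 at 3 days and -0.08 at 2 days without. Both inhibitor arrays lay above both arrays without it. The share of all genes with that order was not computed. The mean was 0.60 ± 0.16 (SD, n = 2) with inhibitor, 1.51-fold, at the 97.1st percentile of genes (limma adjusted p = 0.0556). Without inhibitor it was 0.12 ± 0.29 (adjusted p = 0.796). The difference of 0.47 (SE 0.20) had an unadjusted p of 0.0474 and an adjusted p of 0.989. Over 4 arrays the mean was 0.36 (SE 0.10, adjusted p = 0.0566). With the day as a block the adjusted p was 0.0142 with inhibitor and 0.0132 over the 4 arrays. That fit called 908 and 1121 of 3589 genes. Without the 3 h array the value with inhibitor was 0.71 and the equal-weight mean of the groups 0.42. Without the 24 h array they were 0.49 and 0.31.

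Of the nuclear regulators, BCL6 stayed close to 0 in its gene mean. It had 0.33 at 24 h and -0.04 at 3 h with inhibitor, against 0.16 at 3 days and 0.13 at 2 days without. The means were 0.14 ± 0.27 (SD, n = 2) with inhibitor and 0.14 ± 0.02 without. Their difference was -0.0005 (SE 0.18), with a 95% interval of -0.43 to 0.43. The 3 complete probes disagreed. One read 0.28, 0.11, 0.36 and 0.30 in that order of arrays, above 0 on each. Another read 0.59 and 0.02 with inhibitor, against -0.16 and -0.001 without, and the third 0.13 and -0.26, against 0.28 and 0.09. Of its incomplete probes, 1 read 0.74 at 3 days and 0.085 at 2 days without inhibitor and was empty on both inhibitor arrays. Whether the probes detect the same transcripts of BCL6 is not stated in the sources used here.

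MYBL1 had 0.41 at 24 h and 0.22 at 3 h with inhibitor, against 0.23 at 3 days and -0.06 at 2 days without. The mean was 0.32 ± 0.13 (SD, n = 2) with inhibitor, with an unadjusted p of 0.041 and an adjusted p of 0.16, and 0.09 ± 0.21 without (adjusted p = 0.861). With the day as a block the mean with inhibitor had an adjusted p of 0.0447, where 908 of 3589 genes were called. On the 3-day arrays the highest values of MYBL1 were of incomplete probes, while other incomplete probes lay below a complete one. Complete and incomplete together, the 5 probes with a value at 24 h ranged from 0.25 to 1.06, with a median of 0.58. At 3 h 6 probes ranged from -0.20 to 0.50. Without inhibitor, 7 probes ranged from 0.06 to 0.72 at 3 days, all above 0, and 7 from -0.17 to 0.05 at 2 days.

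LMO2 differed between its arrays and probes. It had 0.44 at 24 h and -0.09 at 3 h with inhibitor, against -0.06 at 3 days and 0.09 at 2 days without. One complete probe carried the 24 h value, with 0.79 on that array and -0.29 at 3 h, while the other had 0.10 and 0.12. The SD between these probes on the 24 h array was 0.48, against a median of 0.20 over the 1723 genes with 2 or more complete probes. The mean over 4 arrays was 0.10 (SE 0.11, adjusted p = 0.56) and turned to -0.04 without the 24 h array.

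MAML3 had its high value elsewhere. Its 1 complete probe read 0.09 at 24 h and 0.22 at 3 h with inhibitor, against 0.74 at 3 days and -0.04 at 2 days without. Its mean was 0.15 ± 0.09 with inhibitor and 0.35 ± 0.55 without (SD, n = 2), an order opposite to that of the other markers apart from BCL6, whose means were level. The difference was -0.20 (SE 0.26, adjusted p = 0.999), and without the 3-day array it was 0.19. A second probe, with no value at 3 days, read 0.65 at 24 h and 0.13 at 3 h with inhibitor, against 0.08 at 2 days without.

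MME, the CD10 peptidase, had 0.34 at 24 h and 0.00 at 3 h with inhibitor, against 0.10 at 3 days and 0.05 at 2 days without. The means were 0.17 ± 0.24 (SD, n = 2, adjusted p = 0.411) with inhibitor and 0.08 ± 0.04 (adjusted p = 0.876) without. The 3 h value hid a wide spread: its complete probes read 0.43, 0.03, 0.01 and -0.47, with an SD of 0.37, against a median of 0.18 over genes. At 24 h the same 4 probes lay between 0.17 and 0.52. Of 3 incomplete probes, 1 was high on both inhibitor arrays (0.61 and 0.64) and another was at -0.16 and 0.01.

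**Figure D2:**
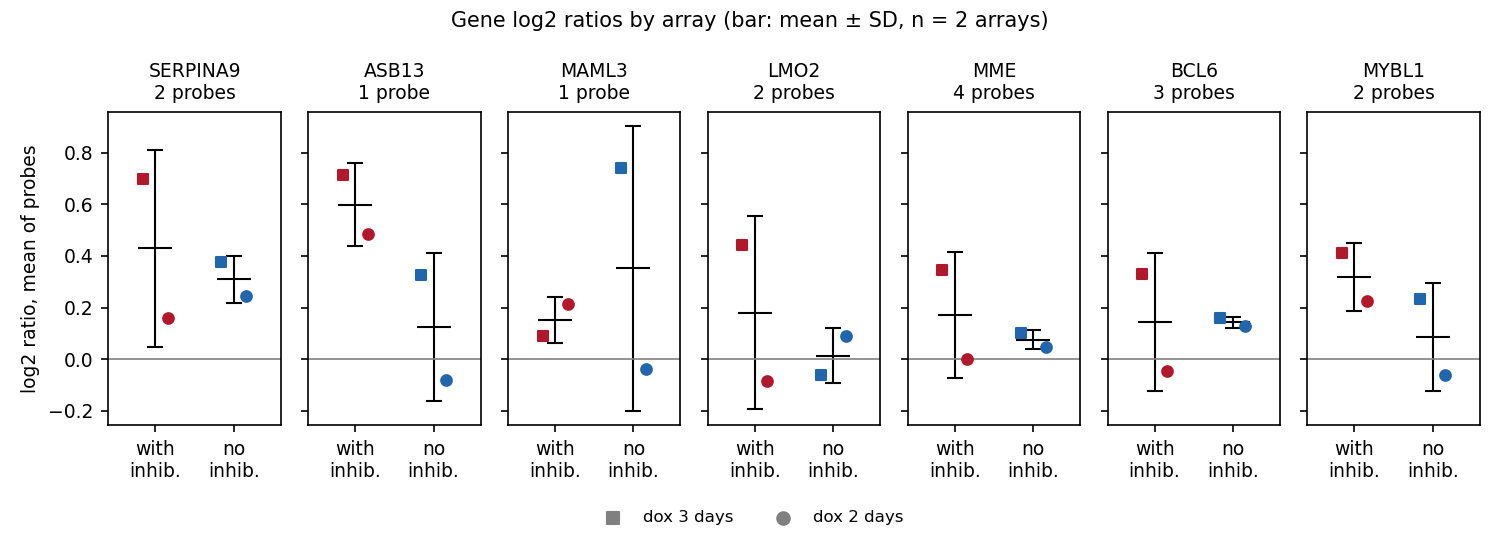
Each panel plots the log2 ratio of 1 gene (vertical axis, mean of its complete probes) on the arrays with inhibitor at left and without at right. Squares are 3 days of doxycycline, circles 2 days, and the bar with whiskers is the mean ± SD of 2 arrays. The squares with inhibitor lie above 0 in every panel, and MAML3 alone has its highest point at 3 days without inhibitor.

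Across the 7 genes the 24 h inhibitor array was the one on which every value had the same sign. All 7 gene values were above 0 there, between 0.09 and 0.71 with a median of 0.41, where 46.6% of the 3589 measured genes were above 0 and their median was -0.03. On the 3 h array 4 of 7 were above 0 (median 0.16), on the array of 3 days without inhibitor 6 of 7 (0.23) and at 2 days 4 of 7 (0.05). As single probes, all 15 complete probes lay above 0 at 24 h, against 45.6% of all complete probes, and 12 of 15 at 3 h, against 47.4%. Without inhibitor 11 of 15 lay above 0 at 3 days, against 40.1%, and 8 of 15 at 2 days, against 49.7%. Probes of 1 gene share its transcript and are not independent.

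The incomplete probes need a separate background. Over the whole array, probes with an empty cell on any array were mostly above 0 on the 3-day arrays, 71.9% of them at 24 h of inhibitor and 82.4% without inhibitor. On the 2-day arrays 55.1% were above 0 at 3 h of inhibitor and 50.3% without. The markers' incomplete probes were above 0 in 7 of 8 and 8 of 9 cases on the 3-day arrays, and in 5 of 8 and 5 of 14 cases on the 2-day arrays. At 3 days without inhibitor that share, 88.9%, is near the background. The part of this shift in the markers' values was not tested.

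**Figure D3:**
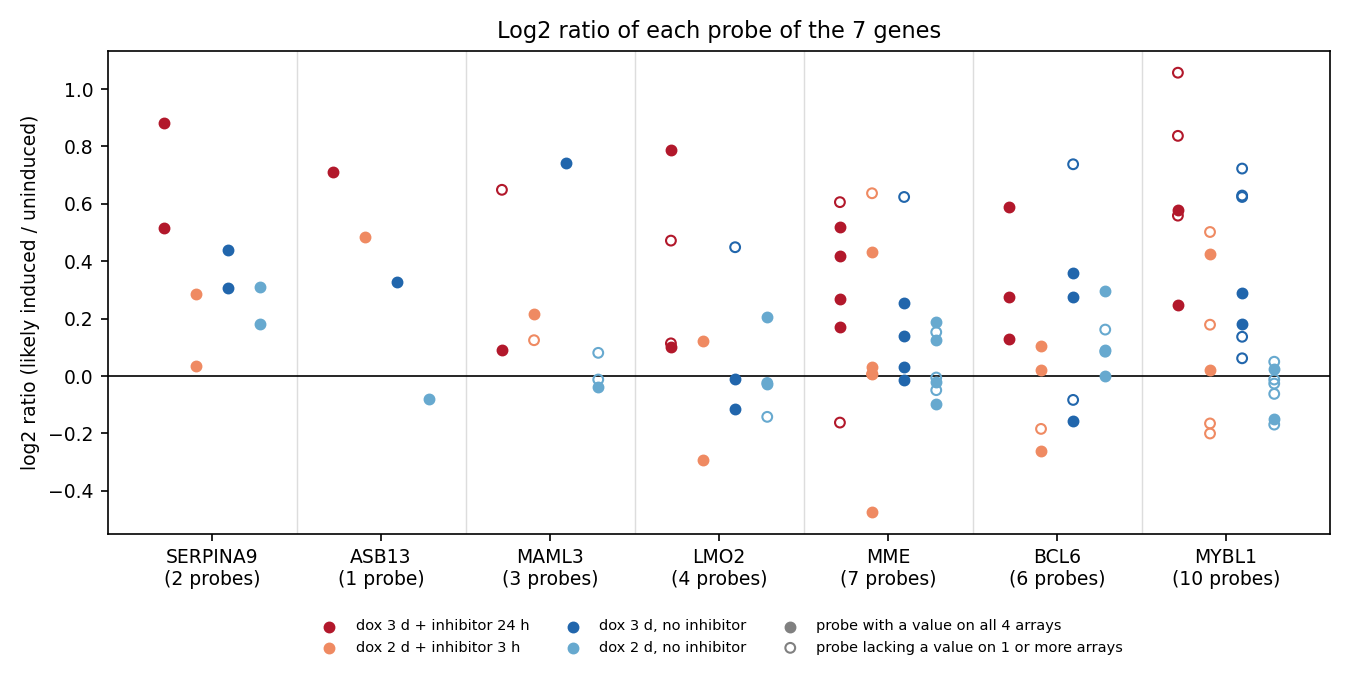
Points are the log2 ratios of the single probes of each gene (vertical axis), with the 2 inhibitor arrays in reds, left of the 2 arrays without inhibitor in blues. Filled points are probes with a value on all 4 arrays and open points are the others. At 24 h every filled point is above 0, and the 1 open point below 0 is a probe of MME at -0.16.

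Large single-probe values were likewise on the 3-day arrays. More than 1.5-fold above 0 were 8 of 23 probes at 24 h (12.1% of all probes), 1 of 23 at 3 h (3.4%) and 6 of 24 at 3 days without inhibitor (4.42%), and at 2 days without inhibitor there was none among 29. Of the 8 and the 6, 4 and 5 were incomplete probes, which over the whole array had a median of 0.27 on each of these 2 arrays. The shares in brackets take complete and incomplete probes together, and 54.5% of the probes of the 7 genes were incomplete, against 35.8% of all. A share among incomplete probes alone was not computed. No probe of the 7 genes was more than 1.5-fold below 0 on any array. Shares of all probes were not computed for the array of 2 days without inhibitor or for values below 0. The highest were probes of MYBL1 at 1.06 and SERPINA9 at 0.88, both at 24 h.

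The test across all genes called none of the 7. With inhibitor, all 7 means were above 0 (48.4% of genes), with a median of 0.18 against -0.01 over all genes. The limma test called 0 of 7 at an adjusted p under 0.05, with 164 of 3589 genes called (4.57%). Unadjusted, 3 of 7 had a higher mean at p under 0.05 (SERPINA9, ASB13 and MYBL1), as did 12.5% of genes. Without inhibitor, all 7 means were above 0 (44.1% of genes), with a median of 0.12 against -0.03, and limma called 0 of 7 and 0% of genes. There, 0 of 7 reached an unadjusted p under 0.05 on the higher side, against 1.28% of genes, while 400 genes did so in either direction. Tested as single probes, 2 of the 15 complete probes of the 7 genes passed with inhibitor, a share near the 11.7% of all tested probes. They were the higher probe of SERPINA9 (limma adjusted p = 0.0446) and that of ASB13 (0.0329).

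**Figure D4:**
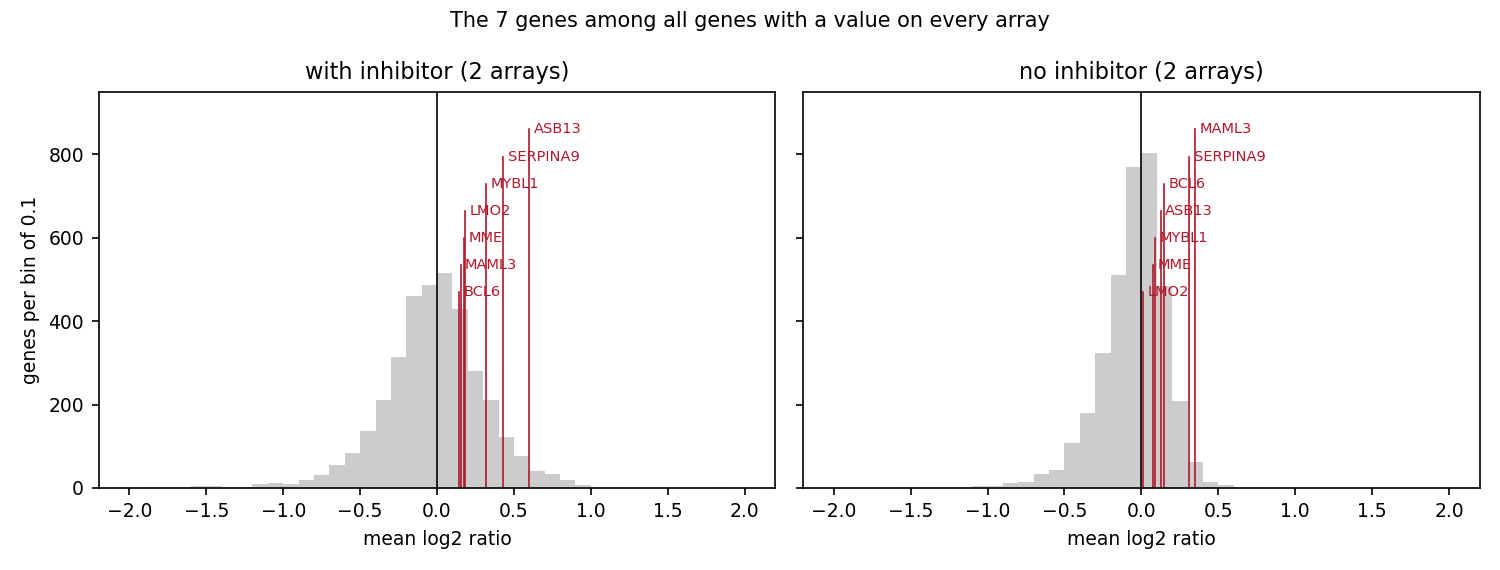
Grey bars count genes by mean log2 ratio in bins of 0.1 (horizontal axis), with inhibitor at left and without at right, and red lines mark the 7 genes. The 7 lie on the right side of 0 in both panels, ASB13 highest with inhibitor at 0.60 and MAML3 highest without at 0.35.

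For the difference with minus without inhibitor, 5 of 7 were above 0 (54.6% of genes) and limma called 0 of 7 and 0% of genes. ASB13 alone had an unadjusted p under 0.05, as 3.2% of genes had on the higher side and 173 genes in either direction. The median difference was 0.12 and became -0.10 without the 24 h array. The interval for SERPINA9 was -0.38 to 0.62 and that for MYBL1 -0.19 to 0.66, so differences of either sign were within the error. After scaling to equal spread the difference of SERPINA9 turned to -0.06.

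Over the 4 arrays together, all 7 means were above 0 (47.3% of genes), from 0.10 for LMO2 to 0.37 for SERPINA9. The limma test called 0 of 7, where 401 genes passed (11.2%). SERPINA9 and ASB13, 2 of 7, had an unadjusted p under 0.05 on the higher side, against 11.5% of genes. As single probes, 1 of SERPINA9 (adjusted p = 0.0347) and that of ASB13 (0.0439) passed. These were 2 of the 15 complete probes of the 7 genes, where 17.5% of all tested probes passed. A gene value above 0 on every array was found for SERPINA9, 1 of 7, and for 15.5% of all genes, so that share is near the background.

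By time, 3 minus 2 days in a fit with the inhibitor group as a term, all 7 differences were above 0 (42% of genes), from 0.19 for LMO2 to 0.33 for SERPINA9. The median was 0.24, against -0.06 over all genes. The limma test called 0 of 7 and 0% of genes. ASB13 alone reached an unadjusted p under 0.05 (0.0443, adjusted p = 0.24), as 9% of genes did on the higher side and 727 genes in either direction. The fit holds a single residual degree of freedom. With inhibitor the day cannot be told apart from 24 h against 3 h of inhibitor. Within the inhibitor arrays 6 of 7 were higher at 3 days, with MAML3 at -0.13, and without inhibitor 6 of 7 were, with LMO2 at -0.15.

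Other markers of the germinal centre did not lie on one side. Of 18 further markers listed, 12 were measured, and their median over 4 arrays was -0.01, which turned to 0.02 after centring each array on its median. They had 6 means above and 6 below 0. RGS13, a regulator of G-protein signals in germinal-centre B cells, fell, with a mean of -0.43 (limma adjusted p = 0.0324). It was the 1 gene called of the 12, where 11.2% of all genes were called, so that share is near the background. Outside the naming rule and chosen after their values were seen, VPREB3, a B-cell receptor assembly gene, had the highest mean at 0.28 (adjusted p = 0.0993), and TOX, a nuclear factor, stood at -0.38 (0.0513). Of these markers' 58 probes, 29.3% were incomplete.

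Partners of BCL6 lay below 0. All 7 measured co-repressor genes had means below 0 in the 4-array mean, with a median of -0.27, and none was called. SIN3A, a scaffold of histone deacetylase complexes, had -0.44 (adjusted p = 0.0513), CHD4, a chromatin remodeller, -0.34 (0.0923) and the demethylase KDM1A -0.27 (0.0951). Of 18 measured genes that BCL6 is known to repress, 14 were below 0 over the 4 arrays, with a median of -0.19, and 4 fell. These were IRF4, which drives plasma-cell differentiation (-0.58, adjusted p = 0.024), NFKB1, an NF-kB subunit (-0.57, 0.016), STAT3 (-0.52, 0.024) and ID2, an inhibitor of E proteins (-0.41, 0.0381). Above 0 were 4 genes, none of them called. Among these were PRDM1 (0.19) and GPR183 (0.18), named after their values were seen. Over all genes 47.3% of these means were above 0 and 11.2% were called in either direction. With inhibitor 17 of the 18 were below 0 (48.4% of all genes were above 0) and the same 4 were called, where 4.57% of genes were. The 17 include PRDM1 (-0.0097), GPR183 (-0.0019) and CCL3 (-0.0108), which lay close to 0. Those 4 calls with inhibitor were lost when either array of doxycycline alone was left out, where far fewer of all genes were called. After centring each array, IRF4 (0.0548), STAT3 (0.0546) and ID2 (0.0564) were not called with inhibitor either. After scaling STAT3 (0.0651) and ID2 (0.065) were not. With incomplete probes IRF4 (0.0508), NFKB1 (0.0562) and ID2 (0.0557) were not. Without the 24 h array IRF4, STAT3 and ID2 lost their calls with inhibitor. IRF4 and STAT3, and the uncalled CCND2 (-0.22) and CD44 (-0.19), are also on the list of activated B-cell markers, so these lists are not independent.

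Of the activated B-cell lymphoma markers, 16 of 17 measured were below 0 over 4 arrays, where 47.3% of all genes were above 0, with a median of -0.22, opposite in sign to the 7 genes, whose median was 0.20. CYB5R2, a reductase (-0.47, adjusted p = 0.0302), and the kinase PIM2 (-0.36, 0.0415) fell beside IRF4 and STAT3, so that 4 of 17 were called, against 11.2% of all genes. These markers had 9.86% incomplete probes.

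Relatives and partners of the other regulators gave 1 or 2 calls a group, where 11.2% of all genes were called over the 4 arrays. ADAM10, a protease that cleaves Notch, fell, with a mean of -0.89 over the 4 arrays (adjusted p = 0.0381, 1 probe), as did EP300, an acetyltransferase that Mastermind proteins recruit (-0.40, 0.0312). They were 2 of 8 measured genes of the Notch pathway. TCF4, an E protein, fell (-0.69, 0.0443) as 1 of 7 in the LMO2 group, a share near that of all genes. MYBL2, the B-MYB paralogue of MYBL1, fell (-0.57, 0.0283), as did RBBP4, a histone chaperone (-0.64, 0.0281, 1 probe), 2 of 5 in the MYB group.

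Genes of other blood lineages were listed beside these. T-cell markers, whose level in these cells could not be checked, had 10 of 10 measured means above 0 over the 4 arrays, with a median of 0.12. Of all genes, 47.3% were above 0. Their medians were 0.33 at 24 h and 0.07 at 3 h with inhibitor, against 0.17 at 3 days and 0.06 at 2 days without. In both this list and the 7 germinal-centre genes the median was highest at 24 h of inhibitor, then at 3 days without, then at 3 h, then at 2 days without. The granule gene NKG7 rose, with a mean of 0.32 (adjusted p = 0.0497, 1 probe). It was the 1 gene called of the 10, a share near the 11.2% of all genes. CD3D, a part of the T-cell receptor complex named after its value was seen, stood at 0.22 (0.112). Of the T-cell probes 54.3% were incomplete, as were 54.5% of those of the 7 genes. The part of this shift in the germinal-centre values was not tested. Myeloid markers had 3 of 4 means above 0 (median 0.01, with CSF1R at 0.32 and ITGAM at -0.27), and B-cell identity genes had 3 of 11 (median -0.06, with POU2AF1 at -0.30). None of either list was called, where 11.2% of all genes were. Each of the 13 genes of these lists called over the 4 arrays lost its call when either array of doxycycline alone was left out. With either left out, far fewer of all genes were called than with the 4 arrays. After centring each array ADAM10 (0.0569), TCF4 (0.0609) and PIM2 (0.0583) were not called over the 4 arrays, and after scaling NKG7 (0.0539) was not. With incomplete probes RBBP4 (0.0516) and PIM2 (0.0532) were not called, and without the 24 h array NKG7 (0.0588) was not.

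**Figure D5:**
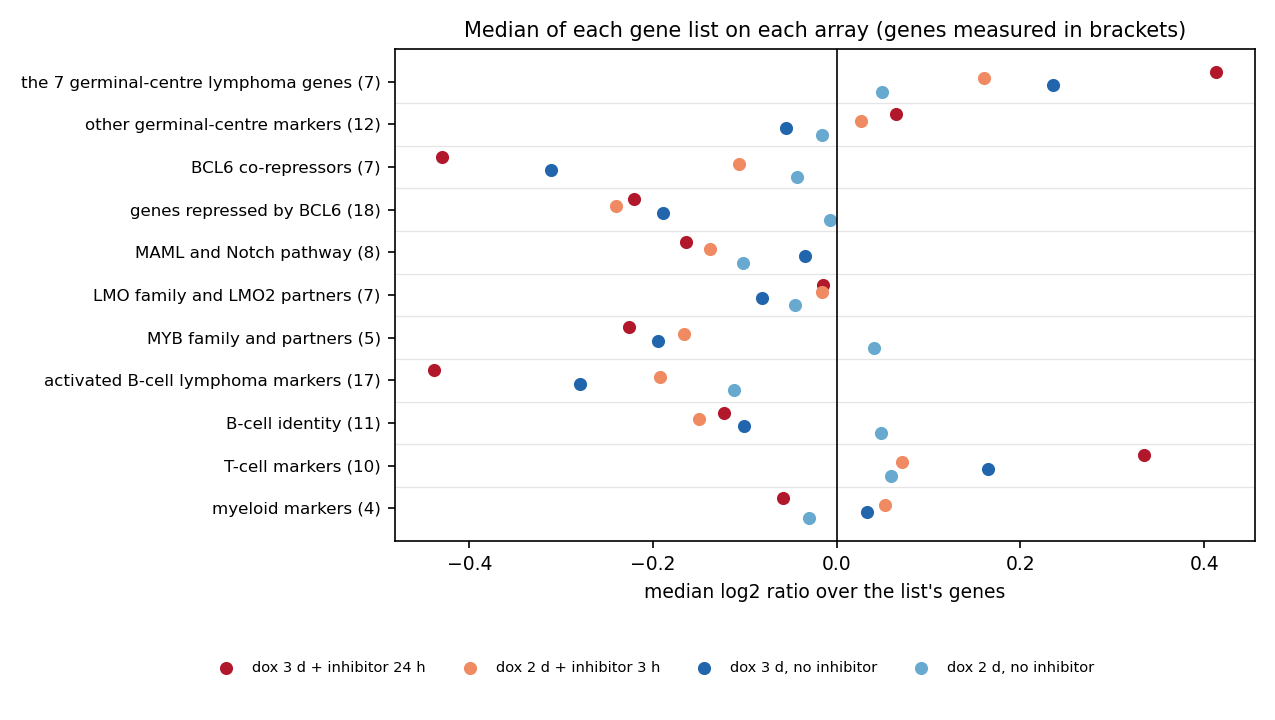
Points are the median log2 ratio (horizontal axis) of each gene list on each array, inhibitor arrays in reds and arrays without inhibitor in blues, with the number of genes measured in brackets. The 7 germinal-centre genes and the T-cell markers have their 24 h medians farthest to the right, at 0.41 and 0.33, and the activated B-cell markers and BCL6 co-repressors theirs farthest to the left, at -0.44 and -0.43.

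Likeness between the 7 profiles was measured as the root mean square difference over the 4 arrays. MME and BCL6 were the closest pair at 0.05, and MAML3 and LMO2 the farthest at 0.47. Among all genes, the nearest to SERPINA9 were SAT1 (0.04), CCNA1 (0.04) and TCP11L2 (0.04), and to ASB13 ADAM28 (0.04), CD34 (0.05) and ZFAND6 (0.07). Those of MYBL1 were PPP3R1 (0.01), RCBTB1 (0.02) and IFIT5 (0.03), and those of LMO2 MALL (0.03), RBBP5 (0.04) and ZBTB1 (0.05). TINF2 was near both MME and BCL6 (0.04 each), with GRK2 and DGKD also near MME and TMEM54 and CCNF also near BCL6. The nearest to MAML3 were MYL12A (0.12), METTL5 and SLC2A5 (0.13 each). With 4 arrays many genes have similar profiles.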

How the data were processed

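RNA of OCI-Ly3 cells was compared on 4 two-colour arrays, 2 with and 2 without MLN120b, grouped by their labels. The authors deposited 1 ratio of Cy5 and Cy3 signals per probe and array, taken here as log2 although its base is unstated, with some cells empty. No source used here states the background correction, the normalization or the filter that emptied cells.

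Of 15246 probes, 10169 had 1 gene symbol, 4 several and 5073 none, and 10128 matched RefSeq (GRCh38.p14) by gene ID. Probes with a value on every array (6796) were averaged to 3589 genes. limma 3.58.1 (R 4.3.3) fitted a mean for each group, or inhibitor group plus doxycycline day, with Benjamini-Hochberg adjustment over all genes and calls under 0.05. The fits had 2 residual degrees of freedom, or 1 for the day. The script was tested on simulated data.

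All 7 genes were named. Also named were CHUK, the genes called in each related list or else up to 3 with the largest mean, and the 3 nearest profiles of each gene. Members and lists were chosen with earlier results of these data known. Alternatives were centring, scaling, incomplete probes, probe medians, single probes, the day as a block, a robust prior and leaving out each array.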

Additional observations from a re-analysis of the deposited data

How the results depend on the processing

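With the doxycycline day as a block, 3 of the 7 genes were called with inhibitor and 2 over the 4 arrays, against 0 in each main test. Of 3589 genes, that fit called 908 with inhibitor, 56 without and 1121 over the 4 arrays. The main tests called 164, 0 and 401. The day marks a shared time, not a shared culture. Of the 15 complete probes of the 7 genes, the fit of single probes called 2 with inhibitor and 2 over 4 arrays. Of 6796 probes in all it called 794 (11.7%) and 1189 (17.5%), with 70 without inhibitor and 5 by day. Scaling called 1 of the 7 over 4 arrays, where it called 638 of 3589 genes, and gave 191 calls without inhibitor and 3 by day. Centring left 109 calls with inhibitor. Probes with at least 1 value per group gave 4 calls for the difference and 5 by day. Leaving out 1 array gave 34 to 858 calls with inhibitor, 0 to 231 without, 0 to 119 for the difference and 12 to 1074 over 4 arrays. Among the 7 genes it gave 0 to 2 calls with inhibitor and 0 to 2 over 4 arrays.

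The median of the 7 moved to 0.025 for the difference and 0.13 by day after scaling, and to 0.32 by day with incomplete probes. Without 1 array it ran from 0.16 to 0.41 with inhibitor, -0.10 to 0.33 for the difference and 0.13 to 0.34 by day. Signs turned for the difference of SERPINA9 (-0.060, scaled) and of BCL6 (0.0082, incomplete probes). Without 1 array the ranges that crossed or reached 0 were these. With inhibitor LMO2 ran from -0.085 to 0.44, MME from 0 to 0.34 and BCL6 from -0.045 to 0.33. Without inhibitor LMO2 ran from -0.062 to 0.0895, ASB13 from -0.079 to 0.33, MAML3 from -0.039 to 0.74 and MYBL1 from -0.0625 to 0.235. For the difference SERPINA9 ran from -0.15 to 0.39, LMO2 from -0.10 to 0.43, MME from -0.076 to 0.27, BCL6 from -0.19 to 0.19 and MAML3 from -0.59 to 0.19. Over 4 arrays LMO2 ran from -0.036 to 0.23, and by day from -0.15 to 0.53, with MAML3 by day from -0.13 to 0.78. A lone array of a group was assumed to vary like the others, and the day comparison then had values only. The cause of these shifts was not tested.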

Other observations

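JAG1, a Notch ligand outside the naming rule and chosen after its values were seen, had log2 ratios of 1.53 at 24 h and 0.25 at 3 h with inhibitor, against 0.03 at 3 days and -0.15 at 2 days without. Its mean with inhibitor was 0.89 (limma adjusted p = 0.0896), so it was not called.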
